A study of Mus musculus with 18 samples.

Results

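The genes described here are 10 genes used as markers of cerebellar Purkinje cells, *Pcp2*, *Pcp4*, *Calb1*, *Car8*, *Itpr1*, *Ppp1r17*, *Pvalb*, *Rora*, *Aldoc* and *Slc1a6*. They were taken from a list of gene symbols, and the list found 10 of the 54752 genes measured in RNA and 10 of the 22523 genes measured in ribosome footprints. The study asked how loss of either of the translational GTPases GTPBP1 and GTPBP2, which act on stalled ribosomes, affects the mouse cerebellum. RNA sequencing and ribosome profiling were performed on cerebella of mice of both sexes at 3 weeks of age. Each of the 3 genotypes had 3 RNA libraries and 3 footprint libraries, 18 in all, and 1 cerebellum was used for each footprint library. B6J mice are C57BL/6J controls. The congenic B6J.*Gtpbp1*-/- mice carry a neomycin resistance gene under the PGK promoter, which disrupts *Gtpbp1* at exons 3 and 4. B6J-*Gtpbp2*-/- mice are homozygous for the chemically induced *nmf205* null point mutation. All groups, the controls included, carry the C57BL/6J mutation that impairs processing of the neuronal tRNA *n-Tr20*, a tRNA Arg that reads AGA codons. Each mutant lacks its own gene, and not the other, in every cell. The RNA of Purkinje cells was measured together with that of all other cerebellar cells.

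The B6J RNA libraries held 49090286, 50301156 and 52114145 estimated counts. Those of B6J.*Gtpbp1*-/- held 44242824, 49293902 and 37794333, and those of B6J-*Gtpbp2*-/- 46026737, 50878561 and 51979454. Footprint libraries were shallower. Totals were 4428395, 4489970 and 6523974 counts for B6J, 7054063, 8612441 and 5944024 for B6J.*Gtpbp1*-/-, and 6281637, 3630823 and 10442573 for B6J-*Gtpbp2*-/-. RNA counts of the 10 genes lay between 6273 for *Slc1a6* and 220461 for *Itpr1*. Their footprint counts lay between 728 and 60027 apart from *Pcp4*, which had 16 to 137.

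Purkinje cells are the output neurons of the cerebellar cortex. Their large dendrites receive parallel fibre and climbing fibre synapses, and glutamate acting there releases calcium from internal stores through the IP3 receptor encoded by *Itpr1*. Soluble calcium-binding proteins shape these signals, and the axons of Purkinje cells inhibit neurons of the cerebellar nuclei.

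Several libraries stood apart for these genes, and the results are given with them in mind. Among footprint libraries, B6J replicate 2 was the lowest of its group for 10 of 10 genes and B6J replicate 3 the highest for 9. The mean deviation of the 10 genes from the group mean was -0.60 (log2) in the first and 0.50 in the second. In B6J.*Gtpbp1*-/-, footprint replicate 3 was the lowest for 8 of 10 genes, with a mean deviation of -0.41. RNA libraries were closer to each other. RNA replicate 2 of B6J.*Gtpbp1*-/- and RNA replicate 3 of B6J-*Gtpbp2*-/- were the lowest of their groups for 10 of 10 genes, with mean deviations of -0.15 and -0.20, and B6J RNA replicate 3 was the lowest for 8, with -0.12. *Ddx3y*, a gene of the Y chromosome, had 4663 counts in RNA of B6J replicate 2. In B6J.*Gtpbp1*-/- it had 5455 counts in replicate 1 and 6574 in replicate 2, and the other RNA libraries had 0 to 26. The 3 B6J-*Gtpbp2*-/- RNA libraries were therefore all low in *Ddx3y*.

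*Gtpbp1* and *Gtpbp2* were examined as a check of the labels. Levels are given in CPM, counts relative to library size after scaling by the trimmed mean of M values. *Gtpbp1* RNA was 70.7, 77.6 and 66.5 CPM in B6J, 44.2, 41.7 and 43.8 in B6J.*Gtpbp1*-/- and 58.8, 72.3 and 65.8 in B6J-*Gtpbp2*-/-. In CPM, each B6J.*Gtpbp1*-/- library was below every library of the other genotypes. The log2 fold change against B6J was -0.73 ± 0.08 (standard error, SE; edgeR adjusted p = 5.9e-05), and the reads counted were not limited to the disrupted exons. In TPM, transcript abundance relative to the library total and per length, *Gtpbp1* was at 43.5, 38.4 and 40.4 in B6J, 34.5, 35.1 and 41.1 in B6J.*Gtpbp1*-/- and 40.3, 43.2 and 39.9 in B6J-*Gtpbp2*-/-, with overlap, and with an offset for transcript length the log2 fold change was -0.31 (edgeR adjusted p = 0.0817). The separation in *Gtpbp1* RNA thus depends on how its transcripts are weighted. Footprints on *Gtpbp1* were 73.9, 116 and 85.6 CPM in B6J and 31.7, 25.4 and 36.1 in B6J.*Gtpbp1*-/-, without overlap, with a log2 fold change of -1.57 ± 0.23 (edgeR adjusted p = 0.00676). A point mutation need not lower RNA, and *Gtpbp2* RNA was 85.6, 73.8 and 87.8 CPM in B6J and 65.6, 75.5 and 72.9 in B6J-*Gtpbp2*-/-, with overlap, at a log2 fold change of -0.22 (edgeR adjusted p = 0.19). In TPM the order was the other way and without overlap, with B6J libraries at 91.7 to 114 and B6J-*Gtpbp2*-/- libraries at 127 to 151. The log2 fold change of *Gtpbp2* RNA was 0.32 with an offset for transcript length (adjusted p = 0.122) and -0.61 with protein-coding transcripts alone (adjusted p = 0.00967), so its direction and call depend on this choice. *Gtpbp2* footprints were 44.9, 36.0 and 38.8 CPM in B6J and 28.9, 26.2 and 7.51 in B6J-*Gtpbp2*-/-. These footprint groups did not overlap, but the log2 fold change of -0.97 ± 0.44 was not past the threshold (edgeR adjusted p = 0.321). It was -0.53 without B6J-*Gtpbp2*-/- replicate 3 (adjusted p = 0.26), so *Gtpbp2* checks the label of B6J-*Gtpbp2*-/- only weakly. In B6J.*Gtpbp1*-/-, *Gtpbp2* RNA was 109, 101 and 104 CPM, above every library of the other genotypes. The log2 fold change was 0.34 ± 0.08 against B6J (edgeR adjusted p = 0.0154) and 0.55 ± 0.08 against B6J-*Gtpbp2*-/- (adjusted p = 0.036). In TPM, at 139, 160.0 and 162, it overlapped B6J-*Gtpbp2*-/-.

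All 10 genes were well measured in RNA of B6J cerebellum. Levels of different genes were compared in TPM. Among 26202 genes, *Aldoc* ranked 35 with a mean of 1598 TPM ± 51.9 (SD, n = 3), *Pcp4* ranked 38 with 1520.4 ± 21.8 and *Pcp2* ranked 40 with 1358 ± 185. *Car8* had 1080.4 ± 48.5 TPM, *Pvalb* 1016 ± 27.9, *Itpr1* 919.8 ± 257 and *Calb1* 778 ± 56.3. The remaining genes were lower, *Ppp1r17* at 328 ± 9.86 TPM, *Slc1a6* at 165 ± 18.0 and *Rora* at 109 ± 20.3, at ranks 344, 882 and 1531. B6J libraries of neighbours in this order overlapped for *Aldoc* and *Pcp4*, for *Car8* and *Pvalb*, for *Pvalb* and *Itpr1* and for *Itpr1* and *Calb1*. The other neighbours did not overlap.

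Footprints per kilobase of coding sequence gave another order. Among 14295 genes in B6J, *Pvalb* ranked 4 with a mean of 4361 CPM per kb ± 1392 (SD, n = 3), followed by *Aldoc* at rank 9 with 3615 ± 1426. *Pcp2*, *Calb1* and *Car8* came next with 2612, 2585 and 2500.2 CPM per kb, and *Itpr1*, with the longest coding sequence of the 10 genes, had 403. The length used was that of all annotated coding bases of a gene, 483 for *Pcp2*. Per kb of the 297 coding bases of its most abundant transcript, *Pcp2* had 4248 CPM, above *Aldoc*, so its place in this order depends on the length taken. Divided by TPM, levels per kb of all coding bases were 4.29 for *Pvalb*, 3.33 for *Calb1* and 2.94 for *Slc1a6*, against a median of 0.885 over 14239 genes. The ratio of *Pcp2* was 1.92, or 3.13 with the length of its most abundant transcript, above *Slc1a6*. *Itpr1* lay below that median at 0.438. *Pcp4* stood apart at 0.0120, in percentile 0.253 of all genes. The exons of *Pcp4* overlap those of *Igsf5* on the same strand, and 177 of the 186 coding bases of its most abundant transcript are also annotated as *Igsf5* coding sequence. The counting of the footprints may have left out or split such reads, so footprints and translational efficiency of *Pcp4* are uncertain.

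In RNA, 5 of the 10 genes passed the test in at least 1 mutant, all with lower levels. Against B6J, 3 of 10 genes fell in B6J.*Gtpbp1*-/- (edgeR, adjusted p at most 0.05; 13.8% of 24577 genes tested were called in either direction and 7.93% called lower) and 4 of 10 fell in B6J-*Gtpbp2*-/- (8.63% of 24859 genes called, 5.02% called lower). DESeq2 called 5 and 6 of the 10, all lower, and it called 9.99% and 7.73% of all genes lower. No gene of the 10 was called higher by either tool. The log2 fold change was below 0 for 10 of 10 genes in each mutant, with a median of -0.24 and -0.38, apart from *Pcp2* in B6J.*Gtpbp1*-/- when an offset for transcript length was used (0.16). The median over all genes tested was 0.03 in both. The mutant libraries lay below every B6J library for 4 of 10 genes in B6J.*Gtpbp1*-/-, against 15.5% of all genes, and for 6 of 10 in B6J-*Gtpbp2*-/-, against 13.6%. Both comparisons used the same 3 B6J libraries, so their values are set side by side and are not independent. In whole cerebellum, fewer Purkinje cells and less RNA per cell cannot be told apart.

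These counts depended on single libraries. For B6J.*Gtpbp1*-/- the count was 0 of 10 without its replicate 2, the library with the lowest levels, and 5 of 10 without B6J replicate 3, where 4.93% and 8.91% of all genes were called lower. For B6J-*Gtpbp2*-/- it was 1 of 10, *Pvalb* alone, without its replicate 3, without B6J replicate 1 or without B6J replicate 2. Calls of lower levels over all genes also became fewer in these fits, 2.50%, 2.23% and 2.39% against 5.02%. It was also 1 of 10 with sex as a covariate (2.39% of all genes), where B6J replicate 2 was the only library of that comparison high in *Ddx3y*.

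**Figure D1:**
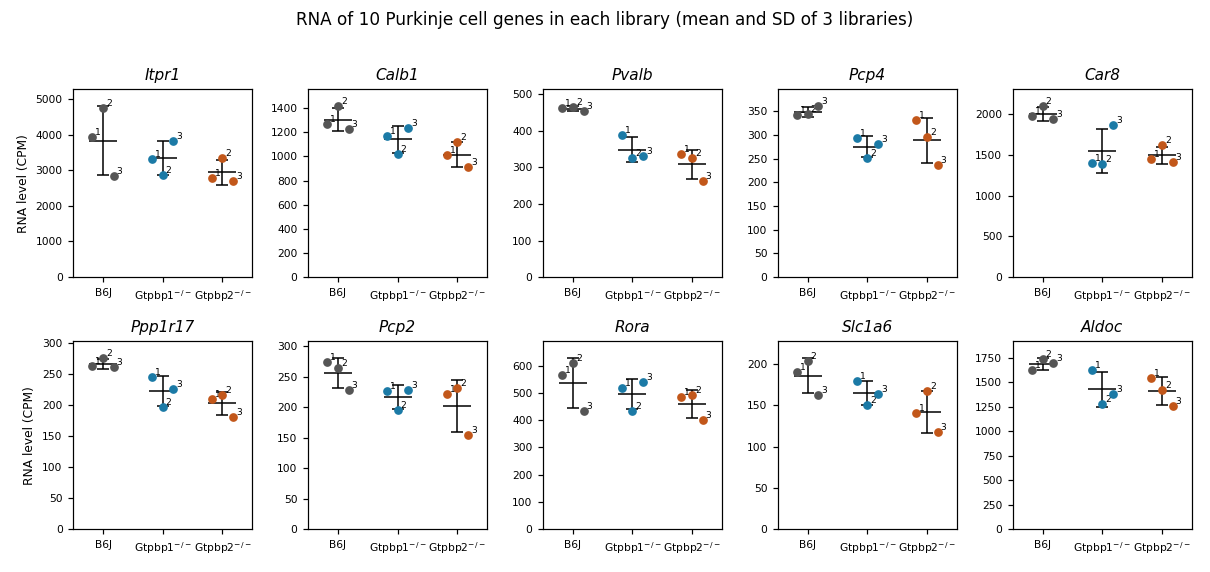
RNA level of each gene (vertical axis, CPM from 0) in the 3 libraries of each genotype, numbered by replicate, with the mean and SD as bars. *Pvalb* is separated in both mutants, with B6J libraries at 454 to 465 CPM and all mutant libraries at 388 or below.

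The genes of the IP3 receptor pathway are taken first. *Itpr1*, the IP3 receptor through which stores release calcium, had RNA levels of 3925, 4747 and 2833 CPM in B6J, 3314, 2877 and 3823 in B6J.*Gtpbp1*-/- and 2789.5, 3345 and 2708 in B6J-*Gtpbp2*-/-. B6J replicate 3 was as low as the mutants and the groups overlapped. The log2 fold changes were -0.21 ± 0.18 and -0.39 ± 0.17 (edgeR adjusted p = 0.561 and 0.221), and without B6J replicate 3 they were -0.39 and -0.56 (adjusted p = 0.049 and 0.0189), both past the threshold. Without B6J replicate 2 they were -0.03 and -0.21 (adjusted p = 0.942 and 0.487). *Car8*, a carbonic anhydrase relative without enzyme activity that binds the IP3 receptor, was at 1983, 2099 and 1939 CPM in B6J, 1400.5, 1394 and 1866 in B6J.*Gtpbp1*-/- and 1452, 1620.3 and 1420.5 in B6J-*Gtpbp2*-/-. Every mutant library was below every B6J library, though B6J.*Gtpbp1*-/- replicate 3 came close to them. *Car8* RNA fell by 0.38 ± 0.11 on the log2 scale in B6J.*Gtpbp1*-/- and by 0.43 ± 0.09 in B6J-*Gtpbp2*-/- (edgeR adjusted p = 0.0427 and 0.0125). Leaving out B6J.*Gtpbp1*-/- replicate 1 or 2, or B6J replicate 1 or 2, ended the call in B6J.*Gtpbp1*-/- (-0.30, -0.30, -0.39 and -0.35, adjusted p = 0.17, 0.21, 0.116 and 0.133). In the other mutant the call ended without its replicate 3, B6J replicate 1 or B6J replicate 2 (-0.39, -0.44 and -0.40, adjusted p = 0.0502, 0.0603 and 0.0511). With sex as a covariate *Car8* missed the threshold in both (-0.33 and -0.40, adjusted p = 0.102 and 0.0541). In B6J.*Gtpbp1*-/- it also missed it with upper quartile scaling or an offset for transcript length (-0.32 and -0.38, adjusted p = 0.0646 and 0.0644). The same held there with replicate number as a block (-0.39, adjusted p = 0.0988).

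Among soluble calcium-binding proteins, *Pvalb* had the RNA log2 fold change farthest from 0 of the 10 genes in each mutant, though in B6J.*Gtpbp1*-/- *Car8* was within its SE, and was farther from 0 without B6J.*Gtpbp1*-/- replicate 3 (-0.53 against -0.38) or with an offset for transcript length (-0.38 against -0.37). *Pvalb*, which encodes the calcium buffer parvalbumin and is also used by molecular layer interneurons and fast skeletal muscle, was at 464, 465 and 454 CPM in B6J, 388, 327 and 331 in B6J.*Gtpbp1*-/- and 337, 326 and 264 in B6J-*Gtpbp2*-/-. No mutant library reached the lowest B6J library. *Pvalb* RNA fell by 0.41 ± 0.09 (log2) in B6J.*Gtpbp1*-/- and by 0.59 ± 0.10 in B6J-*Gtpbp2*-/- (edgeR adjusted p = 0.00664 and 0.005), that is by 24.7% and 33.3%. The call in B6J-*Gtpbp2*-/- held in each of the 15 other settings tried, and in B6J.*Gtpbp1*-/- in 14 of 15, the exception being the fit without its replicate 2 (-0.37, adjusted p = 0.0529). *Calb1*, which encodes the calcium buffer calbindin, was at 1268, 1414 and 1229 CPM in B6J, 1165, 1019 and 1236 in B6J.*Gtpbp1*-/- and 1012, 1118 and 913 in B6J-*Gtpbp2*-/-. Only the B6J-*Gtpbp2*-/- libraries were all below B6J. *Calb1* RNA fell by 0.37 ± 0.10 (log2) in B6J-*Gtpbp2*-/- (edgeR adjusted p = 0.0422), and was at -0.20 ± 0.10 in B6J.*Gtpbp1*-/- (adjusted p = 0.206). The mutants compared directly differed by 0.17 ± 0.11 for *Calb1* (adjusted p = 1), so a difference between them was not shown. Without B6J-*Gtpbp2*-/- replicate 1 or 3 or B6J replicate 1 or 2, the *Calb1* call ended (-0.37, -0.30, -0.39 and -0.31, adjusted p = 0.0708, 0.146, 0.117 and 0.132). It also ended with upper quartile scaling, an offset for transcript length or sex as a covariate (-0.33, -0.37 and -0.31, adjusted p = 0.0639, 0.059 and 0.139).

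*Pcp4*, a small protein that binds calmodulin, was at 341, 344 and 359.9 CPM in B6J, 294, 251 and 280.2 in B6J.*Gtpbp1*-/- and 331, 295 and 237 in B6J-*Gtpbp2*-/-. All mutant libraries were below B6J, B6J-*Gtpbp2*-/- replicate 1 only narrowly. *Pcp4* RNA fell by 0.35 ± 0.08 (log2) in B6J.*Gtpbp1*-/- (edgeR adjusted p = 0.0141). That call ended without its replicate 2 (-0.28, adjusted p = 0.0944), with an offset for transcript length (-0.27, adjusted p = 0.0855) and with replicate number as a block (-0.35, adjusted p = 0.0513). The value in B6J-*Gtpbp2*-/- was -0.28 ± 0.11 (adjusted p = 0.158). It was -0.40 (adjusted p = 0.0405) without replicate 1 of that mutant and -0.16 (adjusted p = 0.453) without its replicate 3. The direct difference between the mutants was -0.06 ± 0.12 for *Pcp4* (adjusted p = 1).

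Of the genes acting with cyclic GMP and G proteins, edgeR called 1, in 1 mutant. *Ppp1r17*, a substrate of cyclic GMP-dependent protein kinase that inhibits protein phosphatases, was at 263, 276 and 262 CPM in B6J, 245, 197 and 227 in B6J.*Gtpbp1*-/- and 210.4, 216 and 181 in B6J-*Gtpbp2*-/-. The B6J libraries were tightly grouped and above all mutant libraries. *Ppp1r17* RNA fell by 0.40 ± 0.09 (log2) in B6J-*Gtpbp2*-/- (edgeR adjusted p = 0.0149), and was at -0.26 ± 0.09 in B6J.*Gtpbp1*-/- (adjusted p = 0.0642), with a direct difference of 0.14 ± 0.10 (adjusted p = 1). The first call ended without B6J-*Gtpbp2*-/- replicate 3, B6J replicate 1 or B6J replicate 2 (-0.33, -0.41 and -0.38, adjusted p = 0.0596, 0.0615 and 0.0622), or with sex as a covariate (-0.39, adjusted p = 0.0662). In the other mutant *Ppp1r17* passed without B6J.*Gtpbp1*-/- replicate 1 (-0.34, adjusted p = 0.0361), with no filter (adjusted p = 0.0367) and by DESeq2 (adjusted p = 0.0229). *Pcp2*, a modulator of inhibitory G proteins, was at 274, 265 and 228 CPM in B6J, 227, 195 and 229 in B6J.*Gtpbp1*-/- and 222, 231 and 154 in B6J-*Gtpbp2*-/-. B6J replicate 3 lay among the mutants, and the log2 fold changes of -0.24 ± 0.09 and -0.35 ± 0.15 were not past the threshold (edgeR adjusted p = 0.11 and 0.205). In B6J-*Gtpbp2*-/- the *Pcp2* value was -0.18 without its replicate 3 (adjusted p = 0.426). Without B6J replicate 3 the *Pcp2* value in B6J.*Gtpbp1*-/- was -0.32 (adjusted p = 0.0285), and without B6J.*Gtpbp1*-/- replicate 2 it was -0.17 (adjusted p = 0.397). With an offset for transcript length it was 0.16 (adjusted p = 0.573), so the direction for *Pcp2* RNA in B6J.*Gtpbp1*-/- depends on how its transcripts are weighted. Exons of *Pcp2* overlap those of *Pet100* on the opposite strand, and the RNA kit does not mark strand, so reads from the shared bases cannot be told apart. The same holds for *Itpr1*, with exons of Gm44040 and Gm44101 on the opposite strand, and for *Rora*, with Gm15511.

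The transcription factor, the transporter and the glycolytic enzyme were not called by edgeR in either mutant. *Rora*, a nuclear receptor needed for Purkinje cell maturation and also used by interneurons, lay between 401 and 609 CPM over all libraries, with log2 fold changes of -0.11 ± 0.12 and -0.23 ± 0.13. *Slc1a6*, the glutamate transporter of Purkinje cell dendrites, lay between 118 and 204 CPM, with -0.18 ± 0.09 and -0.39 ± 0.13. *Aldoc*, aldolase C, marks a subset of Purkinje cells in stripes and is also made by Bergmann glia and astrocytes. It lay between 1259 and 1737 CPM, with -0.25 ± 0.10 and -0.27 ± 0.10. The lowest edgeR adjusted p of these values was 0.0934, for *Slc1a6* in B6J-*Gtpbp2*-/-. Groups overlapped except for *Aldoc* in B6J-*Gtpbp2*-/-, where all 3 libraries were below B6J. Without B6J.*Gtpbp1*-/- replicate 1, *Aldoc* in that mutant was at -0.35 (adjusted p = 0.0382), and without B6J-*Gtpbp2*-/- replicate 2 *Slc1a6* was at -0.53 (adjusted p = 0.0231), both past the threshold. They were at -0.17 without B6J.*Gtpbp1*-/- replicate 2 and -0.27 without B6J-*Gtpbp2*-/- replicate 3. With each library left out, *Rora* ran from -0.25 to -0.01 in B6J.*Gtpbp1*-/- and from -0.35 to -0.13 in B6J-*Gtpbp2*-/-, and *Slc1a6* from -0.27 to -0.11 in B6J.*Gtpbp1*-/-. DESeq2 called *Aldoc* lower in both mutants (adjusted p = 0.0394 and 0.032) and *Slc1a6* lower in B6J-*Gtpbp2*-/- (adjusted p = 0.023), and *Slc1a6* there also passed in edgeR with no filter (adjusted p = 0.0268).

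Compared directly, the mutants did not separate for any of the 10 genes in RNA. edgeR called 0 of 10 genes (0.0595% of 25190 genes tested), 0 had an unadjusted p under 0.05 (3.57% of all genes), and DESeq2 also called 0. The log2 fold changes of B6J.*Gtpbp1*-/- against B6J-*Gtpbp2*-/- ran from -0.06 for *Pcp4* to 0.21 for *Slc1a6*, with a median of 0.13. A further scale was examined because TPM shifted as a whole. The median log2 ratio of TPM to B6J over all genes was 0.16 in B6J.*Gtpbp1*-/- (18066 genes) and 0.15 in B6J-*Gtpbp2*-/- (18127 genes). Relative to these shifts, the median over the 10 genes was -0.25 and -0.37. Unshifted, that median was smaller, -0.09 and -0.23. TPM was then lower for 9 and 10 of 10 genes, the exception being *Pcp2*, at 1486, 1443 and 1146 TPM in B6J and 1879, 1351 and 1890.4 in B6J.*Gtpbp1*-/-.

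In ribosome footprints none of the 10 genes passed the test against B6J in edgeR. It called 0 of 10 genes in B6J.*Gtpbp1*-/- (0.745% of 13956 genes tested), with 1 gene at an unadjusted p under 0.05 (12.6% of all genes) and 0 called by DESeq2. In B6J-*Gtpbp2*-/- it called 0 of 10 (2.94% of 13797 genes), with 3 at an unadjusted p under 0.05 (17.1% of all genes). DESeq2 called 2 there, *Pvalb* and *Itpr1*, both higher, as were 2.17% of all genes by DESeq2. The median log2 fold change was 0.12 and 0.40, or 0.12 and 0.38 over the 9 genes without *Pcp4*, against 0.01 over all genes tested in each mutant. Mutant libraries were above all B6J libraries for 1 of 10 genes in B6J.*Gtpbp1*-/-, *Pcp2*, against 8.89% of all genes, and for 2 of 10 in B6J-*Gtpbp2*-/-, *Calb1* and *Pvalb*, against 10.3%. Without B6J replicate 3, the B6J library with the most footprints on these genes, edgeR called 4 of 10 genes higher in B6J-*Gtpbp2*-/-, and 2.18% of all genes higher. Without B6J replicate 2, the library with the fewest, it called 0.

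**Figure D2:**
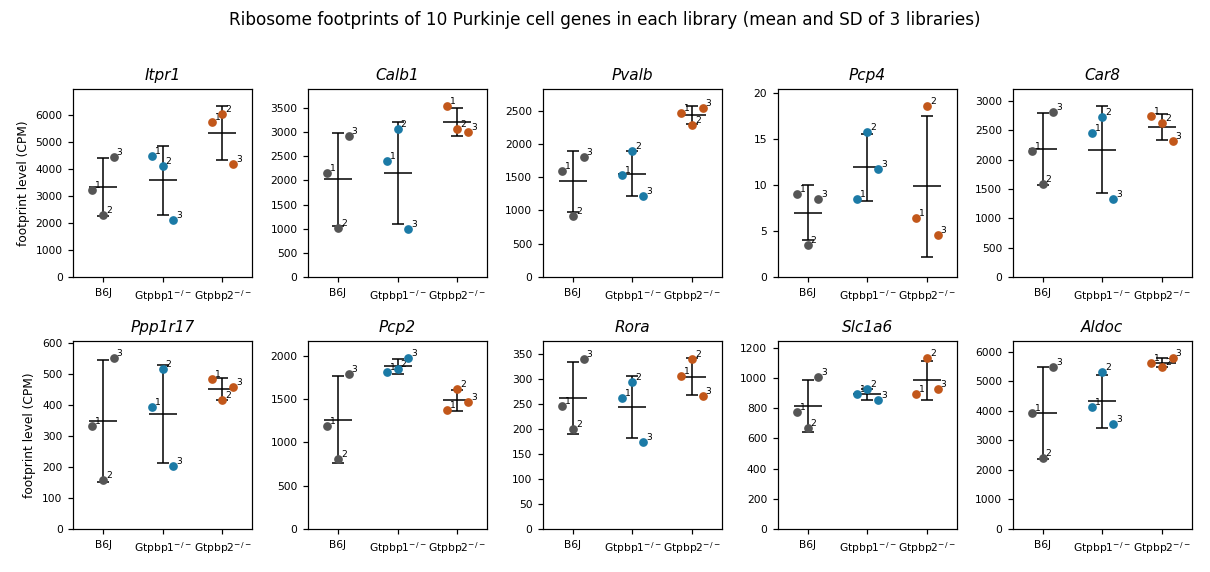
Footprint level of each gene (vertical axis, CPM from 0) in the 3 libraries of each genotype, numbered by replicate, with the mean and SD as bars. B6J replicate 2 is the lowest B6J library in all 10 panels, and the 3 B6J-*Gtpbp2*-/- libraries of *Pvalb*, at 2283 to 2545 CPM, lie above all others.

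Among the calcium genes, footprints on *Itpr1* were 3217, 2318 and 4452 CPM in B6J, 4501, 4129.9 and 2118 in B6J.*Gtpbp1*-/- and 5763, 6044 and 4191 in B6J-*Gtpbp2*-/-. B6J-*Gtpbp2*-/- replicate 3 was below B6J replicate 3, so the groups overlapped. The log2 fold change in B6J-*Gtpbp2*-/- was 0.68 ± 0.23 (edgeR adjusted p = 0.137), 0.95 without B6J replicate 3 (adjusted p = 0.018) and 0.48 without B6J replicate 2 (adjusted p = 0.373). Footprints on *Pvalb* were 1586, 924 and 1808 CPM in B6J, 1537, 1892 and 1218 in B6J.*Gtpbp1*-/- and 2458, 2283 and 2545 in B6J-*Gtpbp2*-/-. The B6J-*Gtpbp2*-/- libraries were close together and above every other library, and the B6J.*Gtpbp1*-/- libraries lay within the range of B6J or just above it. For *Pvalb* in B6J-*Gtpbp2*-/- the log2 fold change was 0.76 ± 0.21 (edgeR adjusted p = 0.0748), 0.96 without B6J replicate 3 (adjusted p = 0.0181) and 0.52 without B6J replicate 2 (adjusted p = 0.193). In B6J.*Gtpbp1*-/- it was 0.12 ± 0.25 (adjusted p = 0.902), and the direct difference between the mutants was -0.66 ± 0.19 (adjusted p = 0.298). Footprints on *Calb1* were 2147, 1009 and 2917 CPM in B6J, 2402, 3063 and 992 in B6J.*Gtpbp1*-/- and 3528, 3065 and 2995 in B6J-*Gtpbp2*-/-. The lowest B6J-*Gtpbp2*-/- library was just above the highest B6J library, and the log2 fold change of *Calb1* was 0.66 ± 0.32 (edgeR adjusted p = 0.331), 1.03 without B6J replicate 3 (adjusted p = 0.0474) and 0.34 without B6J replicate 2 (adjusted p = 0.487).

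Skeletal muscle genes were followed in the same footprint libraries. The summed footprints of 11 muscle genes were 16.2, 24.4 and 22.6 CPM in B6J, 49.9, 24.6 and 70.6 in B6J.*Gtpbp1*-/- and 10.6, 11.2 and 7.41 in B6J-*Gtpbp2*-/-. The B6J-*Gtpbp2*-/- sums were below every B6J sum and the B6J.*Gtpbp1*-/- sums above, 1 of them narrowly. *Acta1*, the most abundant of them in footprints, averaged 8.90 CPM, and none of the 11 was at 0 in all libraries. Their part in the *Pvalb* footprints was not tested.

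Of the other genes, *Pcp2* had footprints of 1187, 804 and 1794 CPM in B6J, 1807, 1849 and 1970.2 in B6J.*Gtpbp1*-/- and 1369, 1614 and 1470.2 in B6J-*Gtpbp2*-/-. The B6J.*Gtpbp1*-/- libraries were all above B6J, by a small margin over B6J replicate 3. The log2 fold change of *Pcp2* there was 0.58 ± 0.25 (edgeR adjusted p = 0.354), 0.91 without B6J replicate 3 (adjusted p = 0.0723) and 0.34 without B6J replicate 2 (adjusted p = 0.773). In B6J-*Gtpbp2*-/- it was 0.24 ± 0.24 (adjusted p = 0.666), 0.58 without B6J replicate 3 (adjusted p = 0.102) and 0.00 without B6J replicate 2 (adjusted p = 0.998). *Aldoc* footprints were 3923, 2389.7 and 5496 CPM in B6J, 4113, 5299 and 3543 in B6J.*Gtpbp1*-/- and 5627, 5485 and 5776 in B6J-*Gtpbp2*-/-. The last group was tight and overlapped B6J, since its replicate 2 lay just below B6J replicate 3. It had a log2 fold change of 0.52 ± 0.24 (edgeR adjusted p = 0.292), 0.84 without B6J replicate 3 (adjusted p = 0.0322) and 0.26 without B6J replicate 2 (adjusted p = 0.613). *Car8*, *Ppp1r17*, *Rora* and *Slc1a6* footprints overlapped between all groups, with log2 fold changes from -0.09 to 0.14 in B6J.*Gtpbp1*-/- and from 0.22 to 0.38 in B6J-*Gtpbp2*-/-. *Pcp4* footprints were between 3.51 and 18.5 CPM, too few and too uncertain in origin to compare. Between the mutants, edgeR called 0 of 10 genes in footprints (0% of 14142 genes), with 1, *Pvalb*, at an unadjusted p under 0.05 (10.8% of all genes) and 0 called by DESeq2.

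Translational efficiency, the ratio of footprints to RNA, was tested as the interaction of assay and genotype over the 12 libraries of a comparison. *Pcp4*, with uncertain footprints, is left out of the medians here. For the other 9 genes the log2 fold change was above 0 in each mutant, but for *Rora* in B6J.*Gtpbp1*-/- (0.02 ± 0.30) it turned in a model of all 18 libraries (-0.01). Leaving out single libraries also turned it in that mutant, down to -0.18 for *Rora*, -0.08 for *Calb1* and just below 0 for *Ppp1r17*. Over the 9 genes the medians were 0.37 and, for B6J-*Gtpbp2*-/-, 0.79, against 0.03 over all genes in both. The 8 lists of other cells, described further on, had medians on both sides of 0. They were 0.48 and 0.15 for oligodendrocyte markers, 0.31 and 0.25 for Bergmann glia and astrocytes, 0.29 and -0.18 for microglia, 0.17 and 0.20 for molecular layer interneurons, -0.24 and -0.51 for granule neurons and -0.59 and -0.97 for cerebellar nuclei. Skeletal muscle genes had 1.23 (6 tested) and -0.88 (3 tested), and genes of bone and connective tissue 1.12 (3 tested) and 0.06 (4 tested). Of these medians, 3 were above that of the 9 genes in B6J.*Gtpbp1*-/-, and the highest in B6J-*Gtpbp2*-/- was 0.25. Another 20 Purkinje cell genes had 0.23 and 0.64, with 1 and 15 of 20 at an unadjusted p under 0.05, against 1170 of 13086 and 1554 of 12931 over all genes. edgeR called 0 of the 20 in each mutant, and 5, all higher, in B6J-*Gtpbp2*-/- without the B6J footprint replicate 3, and DESeq2 called 0 and 1. edgeR called 0 of 10 genes in B6J.*Gtpbp1*-/- (0% of 13086 genes), with 2 at an unadjusted p under 0.05, *Pcp2* and the uncertain *Pcp4*, and 0 called by DESeq2. In B6J-*Gtpbp2*-/- it called 0 of 10 (0.00773% of 12931 genes), with 6 at an unadjusted p under 0.05 (1554 over all genes) and 1, *Pvalb*, called higher by DESeq2, as were 0.534% of all genes. Of the 10 genes, *Pvalb* in B6J-*Gtpbp2*-/- had the largest value, 1.35 ± 0.26 (edgeR adjusted p = 0.0939). It passed without the B6J footprint replicate 3 (adjusted p = 0.0205), and was 1.07 without the B6J footprint replicate 2 (adjusted p = 0.117) and 1.33 by DESeq2 (adjusted p = 8.2e-04). *Itpr1* followed with 1.07 ± 0.32 and *Calb1* with 1.04 ± 0.37 (edgeR adjusted p = 0.244 and 0.295). Without the B6J footprint replicate 3, 5 of 10 genes passed in B6J-*Gtpbp2*-/-, *Pvalb*, *Aldoc*, *Calb1*, *Itpr1* and *Car8*, and 1, *Pcp2*, in B6J.*Gtpbp1*-/- (1.13, adjusted p = 0.0292), all higher. That fit called 0.650% and 0.531% of all genes higher, so leaving out the library added calls beyond these genes. Without the B6J footprint replicate 2, edgeR called 0 genes in either mutant. *Itpr1* was then at 0.82, *Calb1* at 0.67, *Aldoc* at 0.49 and *Car8* at 0.44 in B6J-*Gtpbp2*-/-. *Pcp2* in B6J.*Gtpbp1*-/- was at 0.56 in this fit. A difference in translational efficiency between the mutants was not tested.

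**Figure D3:**
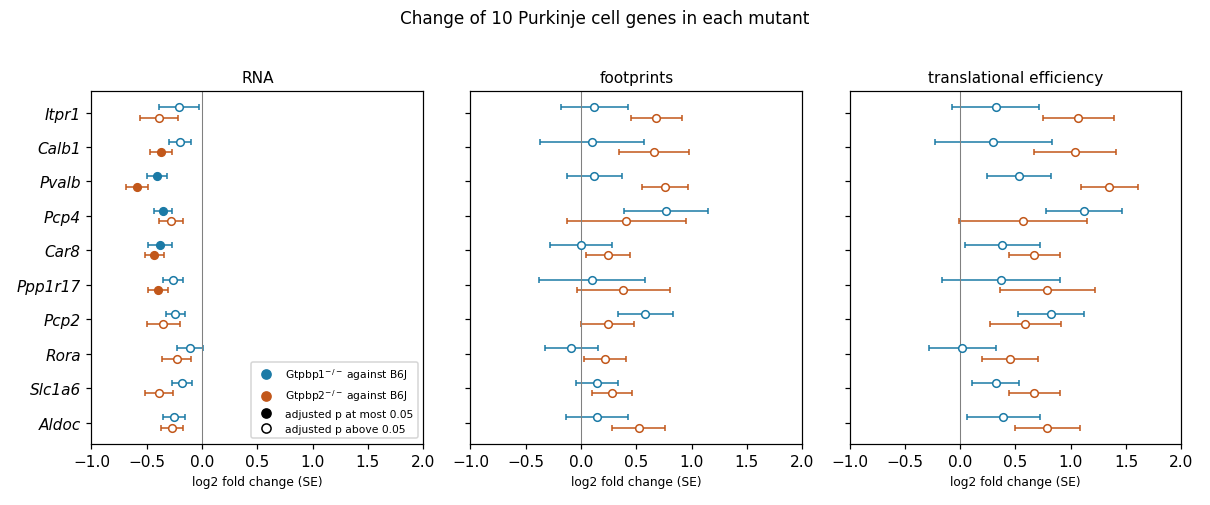
Log2 fold change against B6J (horizontal axis) with its SE for each gene, in RNA, footprints and translational efficiency, for both mutants; filled points passed the threshold. All RNA values lie below 0 (*Pcp2* in B6J.*Gtpbp1*-/- is at 0.16 with an offset for transcript length), footprint values lie around or above 0, and translational efficiency values lie above 0, up to 1.35 for *Pvalb*, with *Rora* in B6J.*Gtpbp1*-/- at -0.01 in a model of all 18 libraries and *Pcp4* uncertain.

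Another 20 genes known from Purkinje cells were followed in the same libraries. In RNA, 1 of 20, *Itpka*, fell in B6J.*Gtpbp1*-/-, where 7.93% of all genes were called lower. This count of 1 is too small to set against that share. In the same comparison, 7 of 20 had an unadjusted p under 0.05, against 26.3% of all genes. DESeq2 called 5, against 9.99% of all genes called lower by DESeq2. In B6J-*Gtpbp2*-/- 6 of 20 fell, against 5.02% of all genes. An unadjusted p under 0.05 was found for 12, against 22.5% of all genes, and DESeq2 called 9, against 7.73% called lower. The medians were -0.20 and -0.38, and 18 of 20 genes were below 0 in each mutant. The exceptions, named after their values were seen, were the transcription factors *Foxp2* (0.29 and 0.55; edgeR adjusted p = 0.553 and 0.231) and *Ebf2* (0.14 and 0.03). Without B6J replicate 3, *Foxp2* in B6J-*Gtpbp2*-/- was at 0.85 and passed (adjusted p = 0.0276). *Itpka*, which phosphorylates IP3, was at 54.3 CPM ± 5.85 (SD, n = 3) in B6J. The B6J.*Gtpbp1*-/- mean was 42.1 ± 1.48 and the B6J-*Gtpbp2*-/- mean 35.7 ± 7.06. Its log2 fold changes were -0.37 ± 0.09 and -0.61 ± 0.14 (edgeR adjusted p = 0.0152 and 0.0204). Those that fell in B6J-*Gtpbp2*-/- also included the phospholipase *Plcb4* (-0.41 ± 0.10), *Icmt* (-0.47 ± 0.10) and *Pde5a* (-0.46 ± 0.11). In B6J.*Gtpbp1*-/- these 3 genes were at -0.31, -0.26 and -0.17, none past the threshold. Between the mutants edgeR called 0 of the 20, with 1 at an unadjusted p under 0.05 (3.57% of all genes) and 0 by DESeq2. The count in B6J.*Gtpbp1*-/- was 0 without its replicate 2, B6J replicate 1 or B6J replicate 2. It was 3 without its replicate 3 (1542 of 23889 genes called lower) and 9 without B6J replicate 3 (2138 of 24002). The number lower in B6J-*Gtpbp2*-/- was 0 without its replicate 3, B6J replicate 1 or B6J replicate 2. It was 3 without its replicate 1 (1388 of 24038 genes called lower) and 10 without B6J replicate 3 (1196 of 24356).

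In footprints, edgeR called 0 of the 20 genes in B6J.*Gtpbp1*-/-, with 1 at an unadjusted p under 0.05 (12.6% of all genes) and 0 by DESeq2. It called 1, *Gng13*, higher in B6J-*Gtpbp2*-/-, where 1.28% of all genes were called higher. A single gene of 20 is too few to set against that share. *Gng13*, a G protein gamma subunit named here after its value was seen, had footprints of 775, 540.4 and 948 CPM in B6J, 1072, 1149 and 1025 in B6J.*Gtpbp1*-/- and 1501, 1583 and 1635 in B6J-*Gtpbp2*-/-. The 3 groups did not overlap. *Gng13* footprints rose by 1.06 ± 0.19 (log2) in B6J-*Gtpbp2*-/- (edgeR adjusted p = 0.00722), and were at 0.53 ± 0.21 in B6J.*Gtpbp1*-/- (adjusted p = 0.307), with a direct difference of -0.55 ± 0.16 (adjusted p = 0.294). Its RNA was 116, 129.5 and 129 CPM in B6J and 112, 112 and 78.5 in B6J-*Gtpbp2*-/-, at -0.31 ± 0.13 (edgeR adjusted p = 0.181). The translational efficiency of *Gng13* in that mutant was at 1.38 ± 0.25 (edgeR adjusted p = 0.082), slightly above the value of *Pvalb*. The count in B6J-*Gtpbp2*-/- was 3 without B6J replicate 3, a fit that called 2.18% of all genes higher.

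The 10 genes varied together between libraries of a genotype. After subtraction of genotype means, the Pearson correlation of log2 CPM over the 9 RNA libraries was 0.714 in the median of 45 gene pairs, from -0.0472 to 0.909, and 0.782 over the 9 footprint libraries, from 0.364 to 0.977. *Calb1* was closest to the mean of the other 9 genes in RNA (r = 0.919) and *Car8* farthest (r = 0.458). Among 12347 other genes, those most like the mean of the 10 were *Homer3* (r = 0.993, n = 9 libraries), *Baiap2* (0.984), *Bcar1* (0.983), *Hunk* (0.981) and *Pik3r2* (0.98). *Homer3*, a postsynaptic scaffold of Purkinje cells, is among the 20 further Purkinje cell genes. These points share their libraries and scaling, and the values are a description. No value for pairs of other genes is given beside them, so whether such correlations are particular to these genes was not tested.

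Markers of other cells moved in the same libraries. The shares of all genes at an unadjusted p under 0.05, to be read beside the counts below, were 26.3% and 22.5% in RNA. They were 12.6% and 17.1% in footprints, and 3.57% in RNA between the mutants. Of 10 granule neuron markers, 8 fell in RNA in B6J.*Gtpbp1*-/- and 7 in B6J-*Gtpbp2*-/-, where 7.93% and 5.02% of all genes were called lower. Their summed RNA was 7484, 7886 and 7426 CPM in B6J, 5066, 4945 and 5742 in B6J.*Gtpbp1*-/- and 5269, 5617 and 4845 in B6J-*Gtpbp2*-/-, without overlap with B6J. *Cbln1*, the most abundant of them in TPM, fell by 0.84 ± 0.09 and 0.81 ± 0.10 on the log2 scale (edgeR adjusted p = 4.3e-05 and 8.5e-04), and *Gabra6* fell by 1.08 ± 0.10 and 1.02 ± 0.09. In footprints, the granule sums of 5969.8, 8427 and 6308 CPM in B6J were followed by 4542, 3479.5 and 5137 in B6J.*Gtpbp1*-/- and 3679.6, 3539.9 and 2925 in B6J-*Gtpbp2*-/-. There, 7 of 10 fell in B6J-*Gtpbp2*-/- (4 without its replicate 1 or 2), against 1.67% of all genes called lower, and edgeR called 0 of 10 in B6J.*Gtpbp1*-/-, with 8 at an unadjusted p under 0.05 and 2 by DESeq2 (2 by edgeR without B6J.*Gtpbp1*-/- replicate 3). B6J replicate 2, the lowest B6J footprint library for Purkinje cell genes, was thus the highest for granule neuron markers.

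Of 6 molecular layer interneuron markers, 4 fell in RNA in B6J.*Gtpbp1*-/- (2 without B6J replicate 2) and 1, *Kit*, in B6J-*Gtpbp2*-/- (4 without its replicate 1). DESeq2 called 5 and 3, against 9.99% and 7.73% of all genes called lower by DESeq2. An unadjusted p under 0.05 was found for 5 and 4, against 26.3% and 22.5% of all genes, and the medians were -0.45 and -0.49. Between the mutants edgeR called 0 of 6, with 1 at an unadjusted p under 0.05 and 0 by DESeq2. Their summed RNA was 506, 515 and 419.5 CPM in B6J, 389, 323 and 347 in B6J.*Gtpbp1*-/- and 378, 324 and 281 in B6J-*Gtpbp2*-/-. All mutant sums were below B6J, and *Kit*, the most abundant of them, was at -0.45 ± 0.11 and -0.67 ± 0.11. Of 10 markers of Bergmann glia and astrocytes, 3 fell and 1, *Gfap*, rose in B6J.*Gtpbp1*-/-, and 4 fell and 1 rose in B6J-*Gtpbp2*-/- (1 fell without B6J replicate 1 or 2, and 2 without B6J-*Gtpbp2*-/- replicate 3). The sums were 5870.3, 6317 and 5349 CPM in B6J, 5560.4, 5032 and 5585 in B6J.*Gtpbp1*-/- and 5399, 5461 and 5038 in B6J-*Gtpbp2*-/-, with overlap. *Slc1a3*, the most abundant of them, fell by 0.45 ± 0.10 and 0.44 ± 0.10 (edgeR adjusted p = 0.00911 and 0.0219), and *Gfap* rose by 1.35 ± 0.13 and 1.22 ± 0.11.

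Of 7 oligodendrocyte markers, 7 fell in RNA in B6J.*Gtpbp1*-/-, and edgeR called 0 in B6J-*Gtpbp2*-/-, with 0 at an unadjusted p under 0.05 and 0 by DESeq2. Between the mutants it called 0 of 7, with 6 at an unadjusted p under 0.05 and 2 by DESeq2. The sums were 11805, 10423 and 12039 CPM in B6J, 8846, 8874 and 7613 in B6J.*Gtpbp1*-/- and 12790.2, 9607 and 10295 in B6J-*Gtpbp2*-/-, and *Mbp* was the most abundant. The number called in B6J.*Gtpbp1*-/- was 4 without its replicate 2 or 3 and 3 without B6J replicate 1. The footprint sums of these markers overlapped, at 12154, 10491 and 16015 CPM in B6J, 15554, 13675 and 12303 in B6J.*Gtpbp1*-/- and 14990.3, 15977 and 14331 in B6J-*Gtpbp2*-/-. In footprints edgeR called 0 of 7 in each mutant, with 0 at an unadjusted p under 0.05 and 0 by DESeq2, and medians of 0.10 and 0.17. Of 7 microglia markers, 5 rose in RNA in each mutant, where 5.90% and 3.61% of all genes were called higher. Their sums were 132, 129 and 140.4 CPM in B6J, 269, 237 and 235 in B6J.*Gtpbp1*-/- and 230.4, 241 and 254 in B6J-*Gtpbp2*-/-. Of 3 markers of cerebellar nuclei neurons, the targets of Purkinje cells, *Spp1* rose in B6J.*Gtpbp1*-/- (1.51 ± 0.25; edgeR adjusted p = 0.0113) and *Slc6a5* fell in B6J-*Gtpbp2*-/- (-0.38 ± 0.09; adjusted p = 0.026). In the other mutant *Spp1* was at 1.64 ± 0.52 (adjusted p = 0.165) and *Slc6a5* at -0.26 ± 0.10 (adjusted p = 0.103). For B6J-*Gtpbp2*-/- 0 of the 3 fell without its replicate 2 or 3 or B6J replicate 1 or 2, and 1 rose without its replicate 1. *Spp1*, also made by other cells, was the most abundant in TPM, and the sums were 73.4, 84.2 and 139.8 CPM in B6J, 160.1, 176 and 164 in B6J.*Gtpbp1*-/- and 196, 197 and 228 in B6J-*Gtpbp2*-/-. In the mutants compared directly edgeR called 0 of these 3, with 0 at an unadjusted p under 0.05 and 0 by DESeq2.

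Of 11 skeletal muscle genes, 9 were tested in RNA and edgeR called 0 in each mutant, with 2 at an unadjusted p under 0.05 in each and 1 and 0 by DESeq2. Their sums were 5.47 to 8.20 CPM in all RNA libraries, and *Mylpf* was the most abundant in TPM. Of 5 genes of bone and connective tissue, 1, *Sparc*, rose in RNA in B6J.*Gtpbp1*-/- (0.34 ± 0.10; edgeR adjusted p = 0.0413) and was at 0.29 ± 0.10 in B6J-*Gtpbp2*-/- (adjusted p = 0.107). The count of 1 became 0 without B6J.*Gtpbp1*-/- replicate 1 or 2 or B6J replicate 1 or 2. For B6J-*Gtpbp2*-/- edgeR called 0 of 5, with 1 at an unadjusted p under 0.05 and 1 by DESeq2, and between the mutants 0 of 4 tested, with 0 at an unadjusted p under 0.05 and 0 by DESeq2. *Sparc*, also made by glia and vessels, was the most abundant, and the footprint sums of the 5 genes were 2813, 3285 and 2972 CPM in B6J, 4668, 4282 and 8174 in B6J.*Gtpbp1*-/- and 3653, 3661 and 4613 in B6J-*Gtpbp2*-/-. No marker of any of these 8 lists was at 0 in all libraries. Their part in the Purkinje cell results was not tested.

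Transcripts of the 10 genes were compared by their share of the gene's TPM, with no test. *Car8* and *Ppp1r17* have 1 annotated transcript each, and *Itpr1* has 13, of which 7 had a mean of at least 1 TPM. The leading *Itpr1* transcript, Itpr1-205, gave 50.8% ± 3.11 of *Itpr1* TPM in B6J (SD, n = 3), against 54.8% ± 1.34 for B6J.*Gtpbp1*-/- and 54.2% ± 2.53 for B6J-*Gtpbp2*-/-. The *Pcp2* transcript Pcp2-205, of 524 bases, made up 15.2% to 16.3% of *Pcp2* TPM in the B6J libraries, 7.15% to 10.2% in those of B6J.*Gtpbp1*-/- and 11.4% to 13.1% in those of B6J-*Gtpbp2*-/-. The 3 genotypes did not overlap, with B6J highest and B6J.*Gtpbp1*-/- lowest. The more abundant Pcp2-203, of 470 bases, gave 37.2% ± 0.846 in B6J. It was highest, at 47.6% and 51.5%, in B6J.*Gtpbp1*-/- replicate 2 and B6J-*Gtpbp2*-/- replicate 3, the libraries lowest in Purkinje cell genes. Such transcripts share most of their bases, so the division of reads between them is an estimate.

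Coding sequences were examined for AGA, the arginine codon that depends on the impaired tRNA. In the most abundant coding transcript of each gene, the 10 genes had a median of 9.33 AGA codons per 1000 codons, against 11.1 over 21739 protein-coding genes. *Pcp4* had the highest value, 32.3 per 1000 (2 in 62 codons, percentile 95.0), and *Pcp2* was the only one of the 10 with 0 AGA codons, among its 7 arginine codons; 1890 of the 21739 genes also had 0. *Itpr1* had the most AGA codons, 27 of 154 arginine codons in 2748 codons. *Pvalb* has a single arginine codon in 110 codons, and it is AGA, at codon 76. The coding sequences of *Pcp2* and *Pcp4*, and codons 61 to 91 of *Pvalb*, are shown because these genes had the extreme AGA contents or, for *Pvalb*, the RNA value farthest from 0; AGA codons are in capitals.
Pcp2 coding sequence, codons 1 to 99: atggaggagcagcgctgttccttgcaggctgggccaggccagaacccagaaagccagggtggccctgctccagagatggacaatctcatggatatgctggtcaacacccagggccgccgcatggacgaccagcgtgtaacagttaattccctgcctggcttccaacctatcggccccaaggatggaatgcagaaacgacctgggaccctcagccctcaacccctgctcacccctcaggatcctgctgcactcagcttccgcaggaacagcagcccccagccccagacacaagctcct
Pcp4 coding sequence, codons 1 to 62: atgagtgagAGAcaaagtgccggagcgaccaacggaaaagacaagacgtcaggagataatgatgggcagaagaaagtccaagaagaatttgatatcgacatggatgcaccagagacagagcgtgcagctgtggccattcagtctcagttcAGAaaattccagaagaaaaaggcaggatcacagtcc
Pvalb coding sequence, codons 61 to 91: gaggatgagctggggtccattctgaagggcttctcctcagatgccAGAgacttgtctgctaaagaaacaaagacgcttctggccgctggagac

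Promoters of 300 bases, from 250 before to 50 after the annotated start, were read from RefSeq (GRCm38.p6) for 6 of the 10 genes, *Pcp2*, *Pcp4*, *Pvalb*, *Rora*, *Aldoc* and *Slc1a6*. *Calb1*, *Car8*, *Itpr1* and *Ppp1r17* had no entry. They were searched on both strands for AGGTCA, the core of the sites bound by ROR receptors such as the product of *Rora*, with no test. The letters were found for 2 of 6 genes, *Pcp2* and *Pcp4*, and for 18.1% of 27025 genes with a promoter entry. By window, 4 of 11 held it, against 16.3% of 32851. The *Pcp2* windows overlap, and 2 of its 3 windows with a match share the same one. The promoters with a match nearest the start of each gene are shown with the match in capitals, which in *Pcp4* is on the other strand and reads TGACCT.
Pcp2, chr8:3625498-3625797, minus strand: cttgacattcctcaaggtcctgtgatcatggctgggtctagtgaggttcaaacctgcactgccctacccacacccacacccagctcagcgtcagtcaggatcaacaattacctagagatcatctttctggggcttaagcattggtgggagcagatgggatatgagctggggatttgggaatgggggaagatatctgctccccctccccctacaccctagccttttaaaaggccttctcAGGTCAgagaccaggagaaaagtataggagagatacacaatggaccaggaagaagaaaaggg
Pcp4, chr16:96467356-96467655, plus strand: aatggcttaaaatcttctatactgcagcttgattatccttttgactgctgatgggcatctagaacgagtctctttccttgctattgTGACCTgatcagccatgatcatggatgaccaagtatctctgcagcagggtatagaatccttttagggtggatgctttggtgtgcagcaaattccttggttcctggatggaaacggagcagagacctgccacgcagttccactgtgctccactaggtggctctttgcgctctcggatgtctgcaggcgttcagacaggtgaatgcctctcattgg
A match is a description of letters in the window and not a site. The genes lie on separate chromosomes apart from *Calb1* and *Car8* on chromosome 4 and *Itpr1* and *Ppp1r17* on chromosome 6 (GRCm38). *Pvalb* shares chromosome 15 with *Gtpbp1*, with *Pvalb* at bases 78191114 to 78206400 and *Gtpbp1* at bases 79690845 to 79721479. The bearing of this on *Pvalb* in the congenic B6J.*Gtpbp1*-/- mice was not tested.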

How the data were processed

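The authors made the RNA values with kallisto 0.42.4 on Gencode transcripts, from mRNA libraries that do not mark strand, and deposited estimated counts and TPM per transcript. For footprints the authors removed ribosomal RNA with Bowtie2 2.2.3, aligned the other reads to mm10 with HISAT2 2.1.0, counted reads on coding sequences with featureCounts and deposited whole counts per gene. Here transcript counts were summed per gene and rounded. For each comparison of 6 libraries, genes reaching 5 counts in 3 or more of them were tested with edgeR 4.0.16 (quasi-likelihood, robust, trimmed mean of M values) in R 4.3.3, with Benjamini-Hochberg adjustment over all genes tested and a threshold of adjusted p at most 0.05. SE is the log2 fold change divided by the square root of F. Translational efficiency was the interaction in a model of 12 libraries, on genes reaching 10 counts in 3 or more libraries of each assay, histone genes left out. RNA in that model is the kallisto sum. CPM were scaled over the 9 libraries of an assay. Coding length and transcripts follow Gencode. Each test was also run on simulated data, with results that are not reported here. DESeq2 1.42.0, other scalings, filters and models, sex, a replicate block and each library left out were tried as alternatives. Named genes were all members, *Gtpbp1*, *Gtpbp2*, up to 10 further Purkinje cell genes by adjusted p, the most abundant and up to 2 top genes of the 8 other lists, and the 5 genes most like the members among those with a mean CPM of at least 5. Values of some genes of these lists are not reported here. The members and lists were chosen with earlier results of these data known. No pair of libraries of an assay was a duplicate (36 pairs each, within and between genotypes; chi-square per gene at least 10.1 in RNA and 10.6 in footprints).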

Additional observations from a re-analysis of the deposited data

How the results depend on the processing

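The numbers of Purkinje cell genes called rested on few libraries. In B6J.*Gtpbp1*-/- RNA 3 of 10 were called. This was 5 by DESeq2, and 1 with an offset for transcript length, where 1331 of 24577 genes were called lower. The count was 0 to 5 with each library left out. In B6J-*Gtpbp2*-/- RNA 4 were called, 1 with sex as a covariate and 1 to 5 with each library left out. In footprints of B6J-*Gtpbp2*-/- the 0 called became 2 by DESeq2 and 1 with no filter, where 256 of 16881 genes were called higher. The count there was 0 to 4 with each library left out. In translational efficiency the 0 called became 0 to 1 in B6J.*Gtpbp1*-/- with each library left out, and in B6J-*Gtpbp2*-/- 1 by DESeq2 and 0 to 5 with each library left out. The cause was not tested.

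With a replicate block the counts were 1 and 7 in RNA, all lower. Over all genes, 1299 of 24577 and 1295 of 24859 were then called lower. In footprints of B6J-*Gtpbp2*-/- the count was 1, higher, and 219 of 13797 genes were called higher. Replicate numbers do not pair the libraries: correlations of deviations between libraries of the same number ran from -0.21 to 0.20 in RNA, -0.33 to 0.17 in footprints and -0.11 to 0.20 between the assays, so the paired values say little.

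The direction turned for *Pcp2* RNA in B6J.*Gtpbp1*-/- with an offset for transcript length (0.16) and for *Rora* translational efficiency in B6J.*Gtpbp1*-/- in a model of all 18 libraries (-0.01). *Car8* footprints in B6J.*Gtpbp1*-/-, at 0.00, were at -0.01 in a model of all 9 libraries and -0.02 with a replicate block. With each library left out, footprint values in B6J.*Gtpbp1*-/- that changed sign ran from -0.24 to 0.60 for *Ppp1r17*, -0.12 to 0.31 for *Pvalb*, -0.11 to 0.45 for *Aldoc*, -0.22 to 0.45 for *Calb1*, -0.08 to 0.39 for *Itpr1* and -0.25 to 0.13 for *Rora* and -0.18 to 0.26 for *Car8*, and in B6J-*Gtpbp2*-/- from -0.36 to 0.80 for *Pcp4*. Translational efficiency ran from -0.08 to 0.62 for *Calb1*, -0.18 to 0.22 for *Rora* and 0.00 (just below 0) to 0.83 for *Ppp1r17* in B6J.*Gtpbp1*-/-, and from -0.16 to 0.95 for *Pcp4* in B6J-*Gtpbp2*-/-. None of these was a call. *Gtpbp2* RNA in B6J-*Gtpbp2*-/-, at -0.22, was at 0.32 with an offset for transcript length. All other directions of the 10 genes against B6J held in the settings tried.

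Calls over all genes moved as well. In B6J.*Gtpbp1*-/- RNA, 3398 became 2237 with a replicate block, 2233 with an offset for transcript length and 1890 to 3798 with a library left out. In B6J-*Gtpbp2*-/- RNA, 2146 became 3409 by DESeq2, 1351 with the offset, 1071 with sex and 953 to 2357 with a library left out. Upper quartile scaling moved the share called higher from 42.6% to 54.9% and from 41.8% to 53.3%, and DESeq2 moved that of footprints in B6J.*Gtpbp1*-/- from 76.9% to 61.8%. The latter share was 47.8% without B6J replicate 3, 94.8% without B6J.*Gtpbp1*-/- replicate 2 and 90.9% with a replicate block. Between the mutants 15 became 46 by DESeq2, 36 with no filter, 5 with protein-coding transcripts alone and 9 with sex, and 9 to 17 with a library left out. In footprints of B6J.*Gtpbp1*-/-, 104 became 406 by DESeq2, 213 with no filter, 202 with all 9 libraries, 44 with a replicate block and 22 to 186 with a library left out. In B6J-*Gtpbp2*-/-, 406 became 655, 590 and 268 in the first 3 of these and 106 to 619 with a library left out. Between the mutants the 0 called in footprints became 100 by DESeq2, 3 with upper quartile scaling, 15 with no filter, 1 with all 9 libraries, 1 with a replicate block and 0 to 33 with a library left out. In translational efficiency, 0 became 58 by DESeq2 and 0 to 174 with a library left out, and 1 became 160 by DESeq2, 5 with all 18 libraries, 0 with a replicate block and 0 to 158 with a library left out.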
